A study of Mus musculus with 4 samples.

Results

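*Nppb*-expressing itch neurons of the mouse dorsal root ganglion (DRG) were followed in sham-operated mice and after the sciatic nerve was loosely ligated, the chronic constriction injury (CCI) model of neuropathic pain. A cell was taken as a member when *Nppb* reached at least 1 count per 10000 UMIs of that cell (CP10K), with *Mrgprd* under 3 and *Mrgpra3* under 1 CP10K, in cells with at least 1500 genes, at least 5000 UMIs and at most 10% mitochondrial UMIs. The rule found 485 members among 17836 cells that passed these limits, of 23691 cells in all. Male-Sham gave 130 members of 3907 cells and Female-Sham 156 of 6440. The injured libraries gave 99 of 3343 (Male-CCI) and 100 of 4146 (Female-CCI). Where 4 values follow each other below, they stand in this order. CCI members were divided by *Sprr1a*, an injury-induced gene, at the level where the natural log of 1 + CP10K exceeds 1, into *Sprr1a*+ and *Sprr1a*- members.

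The 4 libraries held GFP+ cells sorted from the L4-5 DRGs of heterozygous Pirt-EGFPf mice (C57BL/6 background), in which the *Pirt* promoter drives a membrane-bound EGFP in primary sensory neurons. The mice were 7-8 weeks old. Surgery was bilateral and DRGs were taken on day 7. Each library pooled 20 DRGs of 5 mice, and littermates of both sexes received the same surgery, so litter and surgery cannot be told apart. Animals cannot be told apart within a library, so each surgery was represented by 2 libraries (male and female) and cells were not used as replicates.

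These neurons are small unmyelinated pruriceptors. They release the peptides encoded by *Nppb* (natriuretic polypeptide B) and *Sst* (somatostatin) onto spinal neurons of the itch circuit. Their receptors bind interleukin-31 and oncostatin M (*Il31ra*, *Osmr*), leukotrienes (*Cysltr2*) and serotonin (*Htr1f*), and these cytokine receptors signal through JAK kinases. After axotomy sensory neurons switch on a regeneration program and turn down many genes of their mature identity.

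The *Nppb* gene (ENSMUSG00000029019) lies on the plus strand of chromosome 4 at chr4:147985788-147987205, and *Sst* (ENSMUSG00000004366) on the minus strand of chromosome 16 at chr16:23889573-23890958, both in GRCm38. The promoters of these peptide genes are shown because the pair marks the cells and both were low in injured members. The stretches are the 250 bases before each RefSeq start in GRCm38.p6 (chr4:147985650-147985899, plus strand, and chr16:23890845-23891094, minus strand), and capitals mark a TGACGTCA motif, the palindromic cAMP response element.
The GENCODE gene models given above begin further upstream, so the last part of each stretch, the motif included, lies inside them.
Nppb: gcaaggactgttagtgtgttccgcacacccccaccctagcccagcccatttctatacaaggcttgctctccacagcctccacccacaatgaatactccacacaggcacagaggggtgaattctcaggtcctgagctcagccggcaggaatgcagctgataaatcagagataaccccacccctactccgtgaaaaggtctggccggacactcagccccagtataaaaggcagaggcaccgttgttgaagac
Sst: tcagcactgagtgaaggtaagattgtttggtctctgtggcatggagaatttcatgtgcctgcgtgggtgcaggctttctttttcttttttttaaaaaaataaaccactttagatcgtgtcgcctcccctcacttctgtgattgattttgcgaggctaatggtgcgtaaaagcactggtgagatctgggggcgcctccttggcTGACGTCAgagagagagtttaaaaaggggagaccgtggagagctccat
The motif lay 48 to 41 bases before the *Sst* start and was not found in the *Nppb* stretch. It was present in 508 of 32851 RefSeq promoters of this length (1.55%, both strands searched). TGANTCA, the AP-1 motif, was found in neither stretch and in 2217 promoters (6.75%).

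In sham libraries the members carried the markers of this class. Levels below are counts per 1000000 UMIs (CPM) summed over the members of a library, in the order male and female. *Nppb*, which chose the cells, was at 979 and 772 CPM. *Sst* was at 769.6 and 689 CPM in members and at 0.258 and 0.232 CPM in the other neurons of the same libraries. *Il31ra* was at 266 and 209.7 CPM in members against 1.62 and 0.931 CPM, *Npy2r*, a neuropeptide Y receptor, at 251 and 226 against 7.42 and 8.33 CPM, and *Nts*, the neurotensin precursor, at 2099.6 and 2977 against 77.7 and 153 CPM. These levels describe the cells the rule chose and were not tested.

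The label held less well at the lower edge of the rule. UMIs of at least 3 further markers of the class (of *Il31ra*, *Osmr*, *Cysltr2*, *Htr1f*, *Hrh1* and *Nts*) were found in 111 of 130, 124 of 156, 91 of 99 and 92 of 100 members. Among sham *Sprr1a*- members with *Nppb* between 1 and 2 CP10K, just inside the rule, 1 of 14 (male) and 8 of 26 (female) had 3 such markers, whereas 65 of 65 and 45 of 45 did at 10 CP10K or more. Just outside, among *Sprr1a*- sham cells with an *Nppb* UMI below 1 CP10K, 4 of 56 and 3 of 81 did. Among *Sprr1a*+ CCI cells just outside the rule, 49 of 69 and 62 of 79 had 3 of the markers. Without *Nts*, which injured neurons of other kinds also carried, 42 of 69 and 50 of 79 had 3 of the other 5, against 34 of 1629 and 26 of 1973 *Sprr1a*+ CCI cells with no *Nppb* UMI. Whether those edge cells belong to the class was not tested. They are not members, and the *Nppb* level of *Sprr1a*+ members (median 2.03 and 1.63 CP10K, highest 5.31 and 4.83) was bounded from below by the rule.

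Libraries differed in depth and in purity. Members had median depths of 51599, 37888.5, 70171 and 54809 UMIs, and their summed counts lay between 5441128 and 6633416 UMIs per library. Barcodes of 36 members were also called as cells in another library (11, 2, 23 and 0). Of the 47 such copies, 46 failed the limits and held 0.593% to 1.59% of the member's UMIs, and the calls of *Sst* over all members and of *Gal*, *Calca*, *Cartpt* and *Slc17a6* depended on these members, as given beside them. In cells of a satellite glia gate (*Fabp7* and *Apoe*), which should lack the neuronal peptides, an *Nppb* UMI was found in 2 of 103, 1 of 57, 0 of 58 and 0 of 50 cells and an *Sst* UMI in none of them (for 0 of 50 the Clopper-Pearson 95% interval for cells with a UMI reaches 7.11%), at median depths of 6396.5 to 7129 UMIs. *Gal*, the galanin precursor, was found in 12.6%, 8.77%, 31.0% and 64.0% of the same glial cells, so its share of cells is read against that background. The summed level of 13 satellite glial markers in members was 1754 and 1917 CPM in sham, 1249 and 711 CPM in *Sprr1a*+ and 1296 and 1645 CPM in *Sprr1a*- CCI members. The sum of 7 Schwann cell markers was 260.3 and 328 CPM in sham, 582 and 611 CPM in *Sprr1a*+ and 328 and 326 CPM in *Sprr1a*- CCI members, and that of 10 vascular and fibroblast markers 350.2 and 406, 125 and 26.3, and 273.5 and 401 CPM. Nearly all of the latter sum was *Dcn*, at 334 and 395, 117 and 17.6, and 258 and 388 CPM. Markers of other neurons moved too: the peptidergic sum (9 genes, *Calca*, *Tac1* and *Gal* among them) was 2086 and 2578 CPM in sham, 1704 and 2642 in *Sprr1a*+ and 1239.9 and 1486 CPM in *Sprr1a*- CCI members. The NP2 (*Mrgprd* class) sum was 690.1 and 618, 237 and 210.4, and 692 and 509 CPM, the NP3 (*Mrgpra3* class) sum 171 and 133, 25.1 and 27.9, and 164 and 90.7 CPM, and the sums of cold neuron and cLTMR markers lay between 35.6 and 45.9 CPM in sham and between 10.1 and 35.2 CPM in CCI strata. The part of these transcripts in the comparisons was not tested. Among 11 immune markers the sums were 6.92 to 18.2 CPM in sham and 3.63 to 43.6 CPM in CCI strata, with *Ptprc* at 0 in every one.

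The share of members among all passing cells was 3.33%, 2.42%, 2.96% and 2.41% (Clopper-Pearson 95% intervals 2.79-3.94%, 2.06-2.83%, 2.41-3.59% and 1.97-2.93%, which cover counting error only). The sham and CCI shares overlapped. They did not overlap at *Nppb* of at least 5 CP10K, where members were 2.38% and 1.41% of sham and 0.897% and 0.555% of CCI cells. With cells thinned to 5000 UMIs each the shares were 3.38%, 2.38%, 2.72% and 2.17%.

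Injured (*Sprr1a*+) cells were more frequent among the members after CCI under the rule used here, and this rests on members of low *Nppb*. *Sprr1a*+ cells made up 10 of 130 and 20 of 156 sham members (male 7.69%, female 12.8%) and 59 of 99 and 59 of 100 CCI members (59.6% and 59.0%). Thinned to 5000 UMIs the shares were 8.33%, 11.1%, 63.7% and 55.6%. With at least 3 further markers required of each member they were 9.01%, 15.3%, 60.4% and 64.1%. With *Nppb* of at least 5 CP10K the excess in CCI was gone. There 4 of 93 and 6 of 91 sham members (4.30% and 6.59%) were *Sprr1a*+. Of CCI members 1 of 30 and 0 of 23 (3.33% and 0%) were, too few cells to read a direction. Under the rule used here both CCI libraries lay above both sham libraries, and the sexes differed by less than their counting intervals within each surgery. With 2 libraries a side an exact permutation test cannot go below p = 0.333, so no p is given. Among *Mrgprd* cells, the polymodal nonpeptidergic neurons, *Sprr1a*+ cells numbered 0 of 349, 0 of 273, 2 of 105 and 1 of 66, and among *Mrgpra3* cells, another itch class, 0 of 155, 1 of 189, 1 of 41 and 7 of 50. *Mrgprd* cells had at least 3 CP10K of *Mrgprd* and under 1 of *Nppb* and of *Mrgpra3*. *Mrgpra3* cells had at least 1 CP10K of *Mrgpra3*, under 1 of *Nppb* and under 3 of *Mrgprd*. These limits are unlike, and the share in members moved with the *Nppb* limit, so the shares do not rank the classes. Over all passing cells the shares were 1.84%, 3.60%, 52.6% and 51.1%. In both sham libraries the share was higher in members than over all passing cells, of which the members are a part.

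**Figure D1:**
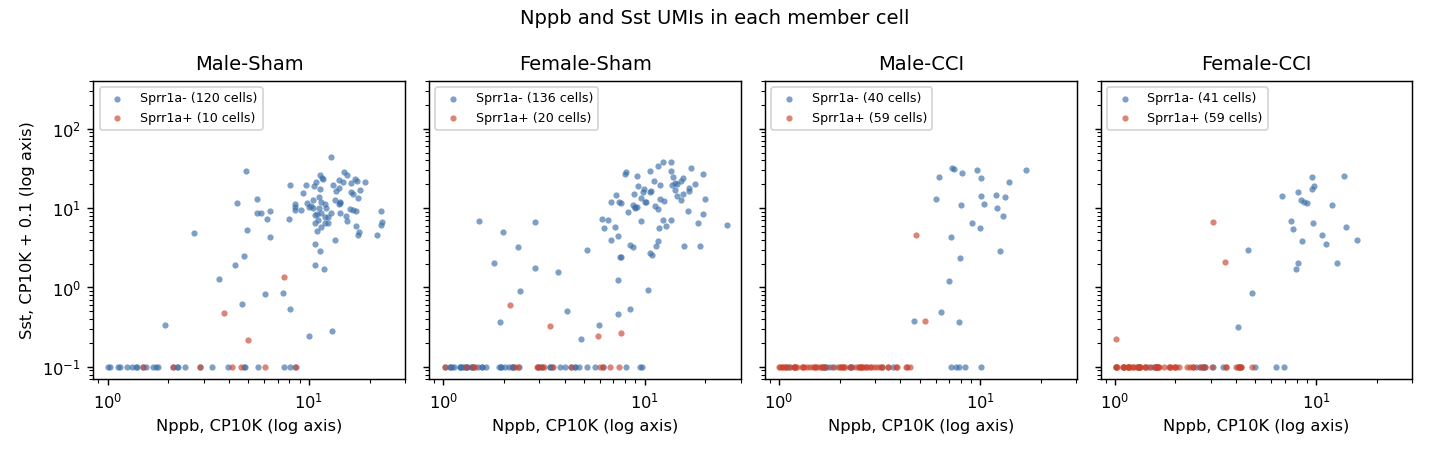
Each point is a member; the 4 panels are the libraries, the x axis is *Nppb* in CP10K and the y axis *Sst* in CP10K with 0.1 added, both on log scales. Blue points are *Sprr1a*- members (120 and 136 in sham, 40 and 41 in CCI) and red points *Sprr1a*+ members (10 and 20, 59 and 59), which lie at the low end of *Nppb* and nearly all at the floor of *Sst*.

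Few injured CCI members held the *Sst* transcript. An *Sst* UMI was found in 94 of 120 and 90 of 136 *Sprr1a*- sham members and in 25 of 40 and 24 of 41 *Sprr1a*- CCI members, but in 2 of 59 and 3 of 59 *Sprr1a*+ CCI members. Thinned to 5000 UMIs per cell the numbers were 86 of 120 and 76 of 136, 21 of 40 and 19 of 41, and 1 of 59 and 1 of 59. Among the *Sprr1a*+ members of sham libraries an *Sst* UMI was found in 3 of 10 and 4 of 20. Other receptor transcripts of the class were still found in most *Sprr1a*+ CCI members, with an *Il31ra* UMI in 49 of 59 and 53 of 59 and an *Osmr* UMI in 56 of 59 and 59 of 59. The plot of *Nppb* against *Sst* by cell shows these members along the bottom of both CCI panels.

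3 comparisons asked how the members changed after CCI: all CCI members, *Sprr1a*+ CCI members and *Sprr1a*- CCI members, each against all sham members. They share the sham libraries. Counts were summed per library and tested by edgeR's quasi-likelihood test on 2 against 2 libraries with Benjamini-Hochberg adjustment over all genes tested, and a gene was called at an adjusted p under 0.05 with an absolute log2 change above 0.5. Because the *Sprr1a*+ cells were chosen on *Sprr1a*, a gene that follows *Sprr1a* from cell to cell was selected together with it, and the split also sorts cells by depth (medians of 76179 and 60024 UMIs in *Sprr1a*+ and 51620.5 and 45645 in *Sprr1a*- CCI members). Over all members 2489 of 11869 genes were called (21%, with 1274 or 10.7% higher and 1215 or 10.2% lower). For *Sprr1a*+ members there were 3701 of 11613 (31.9%, with 1777 or 15.3% higher and 1924 or 16.6% lower), and for *Sprr1a*- members 40 of 11122 (0.36%, with 12 or 0.108% higher and 28 or 0.252% lower). *Nppb* and *Mrgprd*, which chose the cells, are among the calls over all members and in *Sprr1a*+ members. With *Nppb* of at least 5 CP10K, which left 1 and 0 *Sprr1a*+ CCI members, the all-member comparison called 81 genes (37 higher, 44 lower). Under the rule used here, over all members, 6 of 9 NP1 markers, 8 of 12 sodium channels and 17 of 42 potassium channels fell, and among the potassium channels 4 rose, while 37 of 49 regeneration genes and 8 of 9 secreted factors rose and 1 of each fell. *Sst* fell by 1.60 on the log2 scale over all members (SE 0.12, edgeR adjusted p = 5.1e-07), a call lost without the members of shared barcodes (-1.41, adjusted p = 0.070) and at *Nppb* of at least 5 CP10K.

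**Figure D2:**
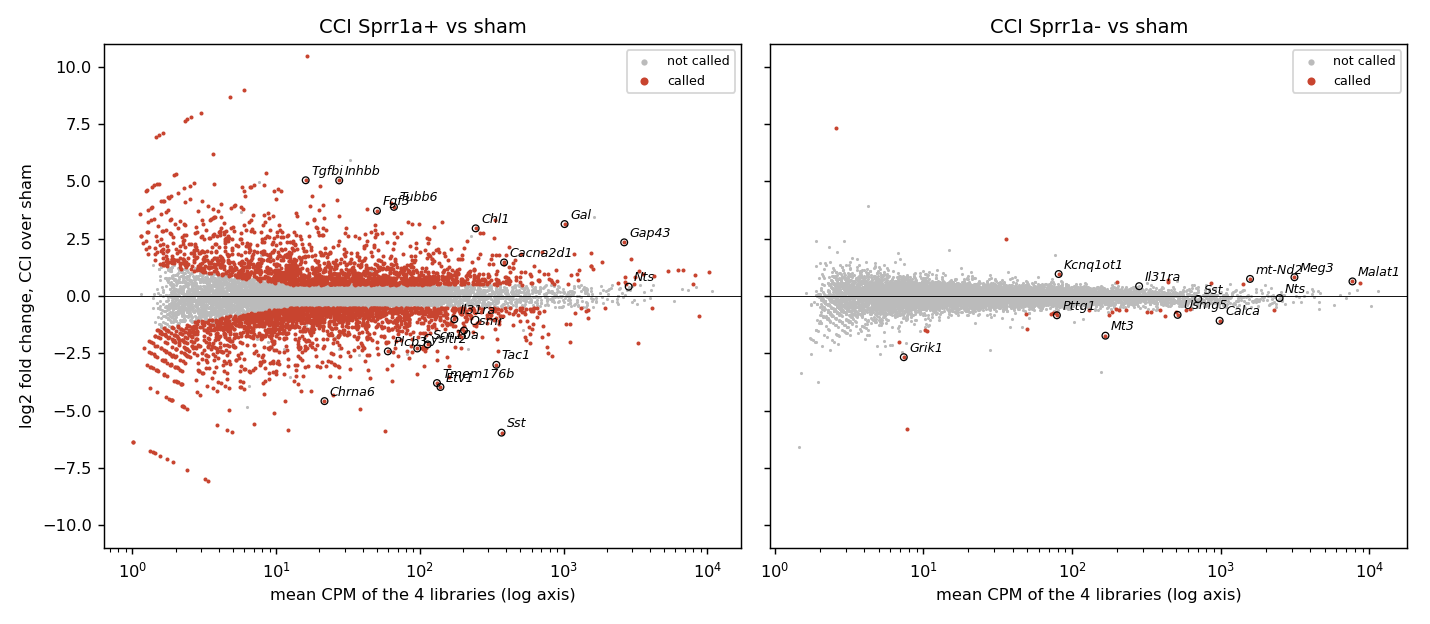
Each point is a gene tested in *Sprr1a*+ (left) or *Sprr1a*- (right) CCI members against sham members; the x axis is the mean CPM on a log scale and the y axis the log2 change, and red marks called genes. The left panel holds 3701 called genes on both sides of 0 and the right panel 40.

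Among the identity genes, 7 of 9 NP1 markers tested beside *Nppb* fell in *Sprr1a*+ members and none rose (median log2 change -1.22, against -0.00 over all genes tested, where 16.6% fell). *Sst* was at 769.6 and 689 CPM in the sham libraries and at 9.77 and 12.3 CPM in *Sprr1a*+ CCI members. The groups were far apart (log2 change -5.96, SE 0.14, edgeR adjusted p = 6.5e-11), but *Sst* was also lower where *Nppb* was lower. In *Sprr1a*- sham members it was at 0.0245 and 0.543 CP10K at *Nppb* of 1 to 2 CP10K. At *Nppb* of 10 CP10K or more it was at 12.1 and 15.5. At *Nppb* of 2 to 5 CP10K it was at 0.186 and 0.339 CP10K in *Sprr1a*+ CCI members. *Sprr1a*- members of that range had 0.0653 and 0.391 CP10K in CCI and 2.30 and 0.567 in sham. The part of the *Nppb* level in the *Sst* change was not tested. In *Sprr1a*- CCI members *Sst* was at 809.7 and 552 CPM, overlapping the sham libraries (log2 change -0.13, adjusted p = 0.77). *Nppb* itself was at 229 and 204 CPM in *Sprr1a*+ and 756 and 691 CPM in *Sprr1a*- CCI members, given as a description since it chose the cells.

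The receptor pair for interleukin-31 was lower and still present. *Il31ra*, its ligand-binding chain, was at 98.0 and 122 CPM in *Sprr1a*+ CCI members and 266 and 209.7 CPM in sham (log2 change -1.02, SE 0.15, edgeR adjusted p = 0.00038). This call was lost, at a log2 change of -0.50, when any *Sprr1a* UMI made a cell positive. *Osmr*, the second chain, was at 332 and 278 CPM in sham and 97.3 and 104 CPM in *Sprr1a*+ CCI members (-1.51, SE 0.11, adjusted p = 4.6e-07). *Cysltr2*, a leukotriene receptor, was at 163 and 159.9 CPM in sham and 32.2 and 29.3 CPM after (-2.29, SE 0.11). *Htr1f*, a serotonin receptor, was at 253 and 213 CPM and then 83.5 and 104 CPM (-1.22, SE 0.13). In each of these the *Sprr1a*+ libraries lay below both sham libraries, while *Sprr1a*- CCI members reached 361 and 293 CPM for *Il31ra*, 349 and 257 for *Osmr*, 218 and 149 for *Cysltr2* and 292 and 248 for *Htr1f*, none of them called. The signalling genes *Jak1*, the kinase shared by these cytokine receptors (1785 and 1393 CPM in sham, 639 and 635 CPM after), and *Plcb3*, a phospholipase downstream of G proteins (119 and 85.0, then 18.9 and 16.8 CPM), fell by 1.22 and 2.41 on the log2 scale. *Hrh1*, the histamine H1 receptor, was at 5.11 and 6.15 CPM against 8.62 and 5.90 CPM and was not called. *Jak1* and the receptors that fell were also lower where *Nppb* was lower. *Il31ra* was at 0 and 0.172 CP10K in *Sprr1a*- sham members at *Nppb* of 1 to 2 CP10K. At 10 CP10K or more it was at 3.36 and 3.46. At 2 to 5 CP10K it was at 1.71 and 0.723, against 1.25 and 1.51 in *Sprr1a*+ CCI members. In that range *Htr1f* and *Jak1* were not below both sham values either, while *Osmr* and *Cysltr2* were. The part of the *Nppb* level in these changes was not tested.

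*Nts*, like *Hrh1*, was not among the markers that fell. It was at 2099.6 and 2977 CPM in sham, 2842 and 3437 CPM in *Sprr1a*+ and 2614 and 2257 CPM in *Sprr1a*- CCI members, and it was not called in any of the 3 comparisons (*Sprr1a*+ log2 change 0.41, SE 0.21, edgeR adjusted p = 0.18). Without Female-Sham the *Sprr1a*+ change passed the test, and was then 0.68 with an adjusted p of 2.5e-05, as did that over all members (0.53, adjusted p = 0.0015), and in *Sprr1a*- members *Nts* was called lower at *Nppb* of at least 5 CP10K (-0.59, adjusted p = 0.047). Within the sham libraries *Nts* was at 8779 and 8734 CPM in *Sprr1a*+ and at 1058 and 1914 CPM in *Sprr1a*- members. By cell, the median *Nts* was 80.9 and 48.6 CP10K in *Sprr1a*+ sham members, 9.18 in *Sprr1a*- sham members of both sexes, and 22.9 and 29.9 CP10K in *Sprr1a*+ CCI members.

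Of 24 itch and cytokine receptors tested in *Sprr1a*+ members, 10 fell and 5 rose (62.5% called, beside 31.9% of all genes tested). Those that fell included *Htr1a* (68.8 and 50.4 CPM in sham, 5.11 and 7.27 CPM after, log2 change -3.20) and the sphingosine-1-phosphate receptors *S1pr1* and *S1pr3* (-2.04 and -2.31). Those that rose were all cytokine receptor chains: *Il4ra* (1.25), *Il13ra1* (1.02), *Il2rg* (2.38), *Il17ra* (2.25) and *Crlf2*, the receptor for thymic stromal lymphopoietin (1.38). *Il4ra*, which binds interleukin-4 and, with *Il13ra1*, interleukin-13, was at 21.8 and 20.6 CPM in sham and 41.8 and 53.4 CPM in *Sprr1a*+ CCI members. *Il17ra* was at 8.31 and 11.6 CPM in sham and 46.4 and 41.6 CPM after. *Il6st* and *Lifr*, the co-receptors of the interleukin-6 family, did not pass the test (-0.16 and -0.31). In the JAK-STAT and phospholipase list 5 of 22 genes rose and 6 fell. The risers included *Stat5a* (4.55 and 6.58, then 27.3 and 21.8 CPM, log2 change 2.25), *Stat5b* (1.63) and the cytokine-induced feedback inhibitors *Cish* (2.24), *Socs1* (1.78) and *Socs3* (0.65), while *Stat6*, the transducer of interleukin-4, and *Prkca*, protein kinase C alpha, fell by 0.81 and 1.59, and *Stat3* was not called (0.08).

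Among 14 neuropeptide genes 4 rose and 6 fell in *Sprr1a*+ members (71.4% called, beside 31.9% of all genes tested). *Gal* was at 206 and 237 CPM in sham and 1246 and 2377 CPM in *Sprr1a*+ CCI members, both above both sham libraries (log2 change 3.14, SE 0.51, edgeR adjusted p = 0.042). The sham level lay largely in members of low *Nppb*. In *Sprr1a*- sham members *Gal* was at 18.6 and 9.70 CP10K at *Nppb* of 1 to 2 CP10K. At *Nppb* of 10 CP10K or more it was at 0.104 and 0.0227. The *Gal* call was lost in 6 of 15 alternative ways of choosing cells, filtering or testing, among them without Male-Sham (3.04, adjusted p = 0.34) and without Female-Sham (3.24, adjusted p = 0.25), without the members of shared barcodes (3.08, adjusted p = 0.051), and with the sham *Sprr1a*+ members left out. With 3 further markers required of each member the change was 6.73 (adjusted p = 0.025). A *Gal* UMI was found in 58 of 59 and 59 of 59 *Sprr1a*+ CCI members, and after thinning in 61.0% and 66.1% of them, against 31.0% and 64.0% of the glial gate cells of the same libraries. *Sprr1a*- CCI members had 27.5% and 41.5% after thinning, below that background, so their *Gal* cannot be read as expression. The share of thinned *Sprr1a*+ members in Female-CCI was also near that background. The level in those members, with medians of 1.23 and 3.53 and highest values of 78.7 and 212 CP10K, was uneven from cell to cell.

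The other peptides that rose were low in sham. *Ucn*, urocortin, was at 11.9 and 12.3 CPM in sham and 84.0 and 73.8 CPM in *Sprr1a*+ CCI members (log2 change 2.80). *Npy*, neuropeptide Y, was at 0.157 and 0.675 CPM (1 and 4 UMIs) and then 7.11 and 15.1 CPM (4.76). *Pomc* rose by 1.03. Peptides of the peptidergic nociceptors fell, and in sham these lay largely in members of low *Nppb*. In *Sprr1a*- sham members with *Nppb* between 1 and 2 CP10K, *Calca* was at 38.4 and 62.1 CP10K and *Tac1* at 24.0 and 12.4, and in those with at least 10 CP10K of *Nppb* at 3.11 and 2.77 and at 4.54 and 3.10 CP10K. *Tac1*, the substance P precursor, was at 628 and 594 CPM in sham and 90.6 and 50.9 CPM in *Sprr1a*+ CCI members (-3.00, SE 0.25, edgeR adjusted p = 0.00086), a call lost at the mitochondrial limit of 5% (-2.94, adjusted p = 0.057). *Calca*, the CGRP precursor, was at 1089 and 1562 CPM and then 282 and 162 CPM (-2.48, SE 0.40, adjusted p = 0.029). The *Calca* call was lost in 6 of 15 alternatives, including without Female-Sham (-2.19, adjusted p = 0.058) and without the members of shared barcodes (-2.42, adjusted p = 0.081). *Cartpt*, at 46.1 and 62.3 CPM and then 13.3 and 4.75 CPM (-2.42), was lost in 3 of 15, without those members (-2.28, adjusted p = 0.056) among them. *Nmb*, neuromedin B, an itch peptide of these neurons, was at 88.9 and 90.6 CPM and then 30.9 and 29.3 CPM (-1.48). Within the sham libraries *Calca* was at 1235 and 1814 CPM in *Sprr1a*- and at 151 and 200.2 CPM in *Sprr1a*+ members, and *Tac1* at 719.5 and 690.2 and at 40.7 and 71.4 CPM.

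**Figure D3:**
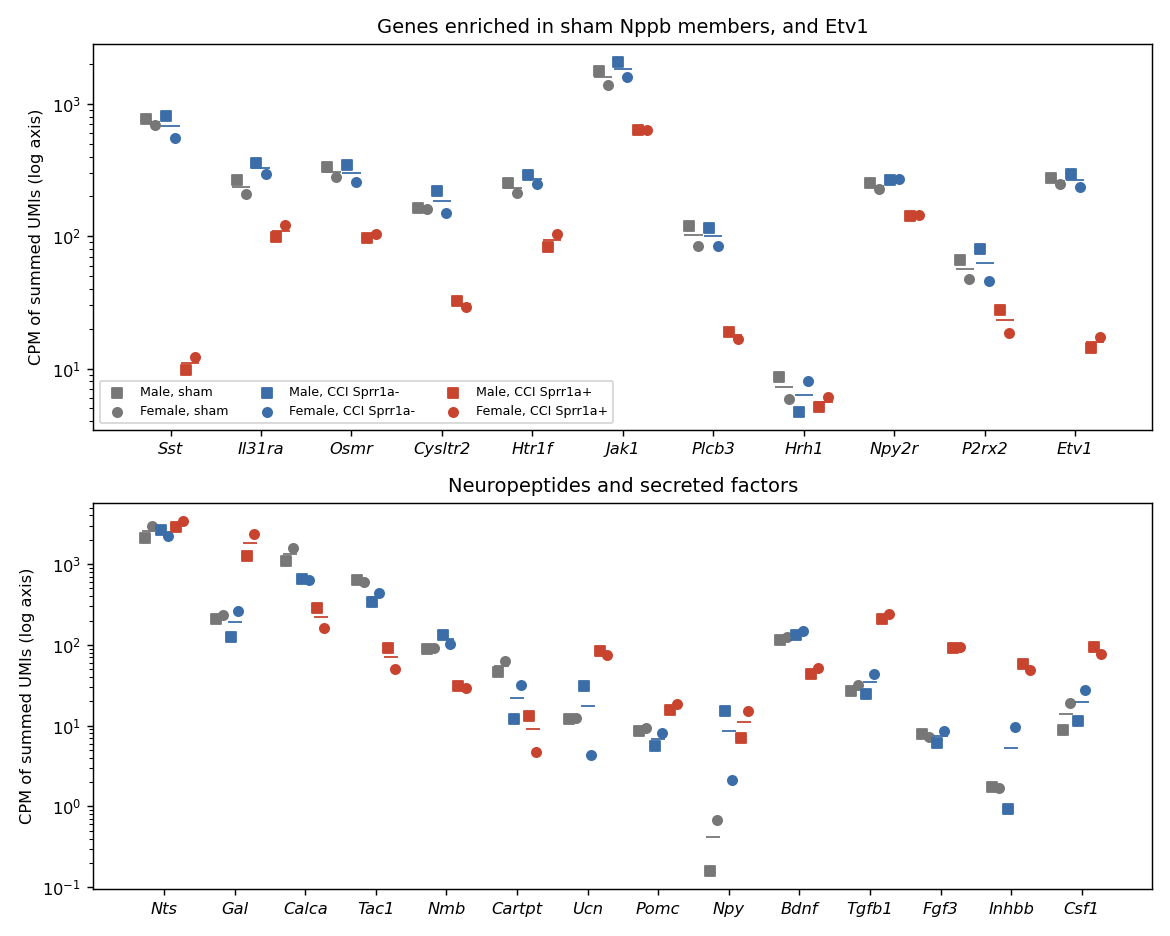
Levels in CPM (log axis) of marker and signalling genes (top) and peptide and secreted-factor genes (bottom), 1 point per library: squares male, circles female, grey all sham members, blue *Sprr1a*- and red *Sprr1a*+ CCI members, short lines the mean of each pair. Red points lie below grey for *Sst* (9.77 and 12.3 against 769.6 and 689) and above it for *Inhbb* (57.1 and 49.5 against 1.72 and 1.69), while for *Nts* they overlap in range with the sham points.

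Of 9 secreted factors tested, 8 rose and 1 fell in *Sprr1a*+ members (15.3% of all genes tested rose). *Inhbb*, a subunit of activin B, was at 1.72 and 1.69 CPM in sham and 57.1 and 49.5 CPM in *Sprr1a*+ CCI members (log2 change 5.05, SE 0.20). *Fgf3*, a fibroblast growth factor, was at 7.84 and 7.25 CPM and then 92.6 and 93.6 CPM (3.72). *Tgfb1* was at 26.6 and 32.2 CPM and then 206 and 240.3 CPM (3.02), and *Csf1*, the growth factor of macrophages and microglia, at 8.93 and 19.2 CPM and then 93.7 and 76.0 CPM (2.70). For each of these the *Sprr1a*+ libraries stood clear of both sham libraries. *Igfbp3* (2.42), *Timp1* (1.56) and *Il6* (1.42) also rose. *Fst*, follistatin, which binds activins, had 2 UMIs in sham members and 25 in *Sprr1a*+ CCI members (ratio of levels 19.0, exact interval 4.75-166). The one that fell was *Bdnf* (115 and 127, then 43.1 and 52.0 CPM, -1.25).

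Of 50 genes tested that are known from regenerating neurons, 40 rose and 1 fell, *Egr1* (-0.95), beside 31.9% of all genes called. Many of them are known to move with *Sprr1a*, which chose the cells. *Gap43*, a growth cone protein, was at 784 and 1059 CPM in sham and 4412 and 4313 CPM in *Sprr1a*+ CCI members (log2 change 2.34). *Sox11*, a transcription factor of axon growth, was at 44.8 and 83.0 CPM and then 583 and 613 CPM (3.33), and *Tubb6*, a beta-tubulin, at 7.21 and 10.6 CPM and then 122 and 125 CPM (3.89). *Atf3*, the injury transcription factor, was at 284 and 347 CPM and then 1061 and 1145 CPM (1.91). *Jun* missed the fold limit (0.46). Of the trophic factor receptors 3 of 14 rose and 2 fell, 35.7% called, which is near the 31.9% of all genes tested. *Gfra1*, the GDNF co-receptor, was at 22.1 and 20.2 CPM in sham and 119 and 118 CPM after (2.58), with *Gfra3* and *Ret* at 0.84 and 0.87.

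The transcription factors of sensory neurons went largely down, 14 of 27 falling and 5 rising (70.4% called, beside 31.9% of all genes tested). *Etv1* had the largest change in this list among those named here, from 278 and 247 CPM in sham to 14.2 and 17.3 CPM in *Sprr1a*+ CCI members (log2 change -3.97, SE 0.14, edgeR adjusted p = 3.6e-09), and it was at 296 and 236 CPM in *Sprr1a*- CCI members. *Bcl11a* and *Bcl11b* (-3.59 and -2.03), *Klf5* (-1.67), *Prdm12*, a regulator of nociceptor development (-1.59), *Isl1* (-0.93), *Tlx3* (-0.83) and *Runx1* (-0.61) also fell. The *Runx1* call was lost with the mitochondrial limit at 5% and with any *Sprr1a* UMI. *Pou4f1*, the general sensory neuron factor, was not called (0.02).

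Voltage-gated sodium channels and their partners fell in 8 of 12 cases and none rose in *Sprr1a*+ members (median log2 change -1.51). Of all genes tested 16.6% fell. *Scn10a* (Nav1.8) was at 192 and 180.2 CPM in sham and 36.0 and 45.0 CPM in *Sprr1a*+ CCI members (-2.11, SE 0.13, edgeR adjusted p = 8.3e-08). *Scn11a* (Nav1.9) was at 187 and 166 CPM and then 33.1 and 36.9 CPM (-2.24), and *Fgf13*, a binding partner of sodium channels, at 984 and 911 CPM and then 212 and 217 CPM (-2.04). *Scn9a* (Nav1.7) was at 292 and 262 CPM and then 184 and 187 CPM. Its change of -0.48 (adjusted p = 0.0013) missed the fold limit and passed it in 6 of 15 alternatives, without Female-Sham (-0.56) and without Female-CCI (-0.51) among them. *Scn8a* was not called (-0.03).

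Potassium channel genes fell in 26 of 42 cases and rose in 5 (73.8% called, beside 31.9% of all genes tested). *Kcnn1* (SK1) went from 45.9 and 35.9 to 5.55 and 5.03 CPM (log2 change -2.85) and *Kcnj3* fell by 2.92. *Kcnmb1* and *Kcnmb4*, alternative beta subunits of the BK channel, went opposite ways: *Kcnmb1* from 25.5 and 19.1 to 1.55 and 0 CPM (7 and 0 UMIs, -4.56, lost with any *Sprr1a* UMI), *Kcnmb4* from 16.1 and 24.6 to 104 and 92.8 CPM (2.38). The pore gene of that channel, *Kcnma1*, rose by 1.13, and *Kcna1* by 2.25. Of 16 calcium and HCN channel genes 2 rose and 3 fell, 31.2% called, which is near the 31.9% of all genes tested. *Cacna2d1*, the gabapentin-binding subunit, was at 207 and 224 CPM in sham and 565 and 546 CPM after (1.46), and *Cacna1e* fell by 2.93, a call lost with DESeq2. Of 25 TRP, P2X, ASIC, Piezo and anoctamin channels 10 fell and 5 rose (60.0% called). *Trpa1* was at 1.11 and 2.79 CPM after CCI (-2.82), *Trpm2* at 57.1 and 42.0 CPM and then 3.78 and 7.54 CPM (-3.08), and *Trpv1* at 189 and 191 CPM and then 108 and 93.6 CPM (-0.81). *P2rx2* fell by 1.18 and *P2rx3* rose by 1.23. *Piezo2* was not called (0.12).

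Genes of transmitter release fell in 19 of 35 cases and rose in 4 (65.7% called, beside 31.9% of all genes tested). *Scg2*, a secretory granule protein, was at 926 and 775 CPM in sham and 233 and 222 CPM in *Sprr1a*+ CCI members (log2 change -1.80), and *Snap25*, of the fusion machinery, at 340.3 and 365 CPM and then 163 and 129.9 CPM (-1.17). *Gria2*, an AMPA receptor subunit, fell by 1.82. *Slc17a6*, the vesicular glutamate transporter, was at 75.9 and 123 CPM and then 211 and 173 CPM (1.05, adjusted p = 0.034), a call lost in 5 of 15 alternatives, with adjusted p = 0.14 without Male-CCI and 0.073 without Female-CCI, and 0.062 without the members of shared barcodes. Ribosomal protein genes were called in 10 of 73 cases (6 higher, 4 lower), beside 31.9% of all genes.

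**Figure D4:**
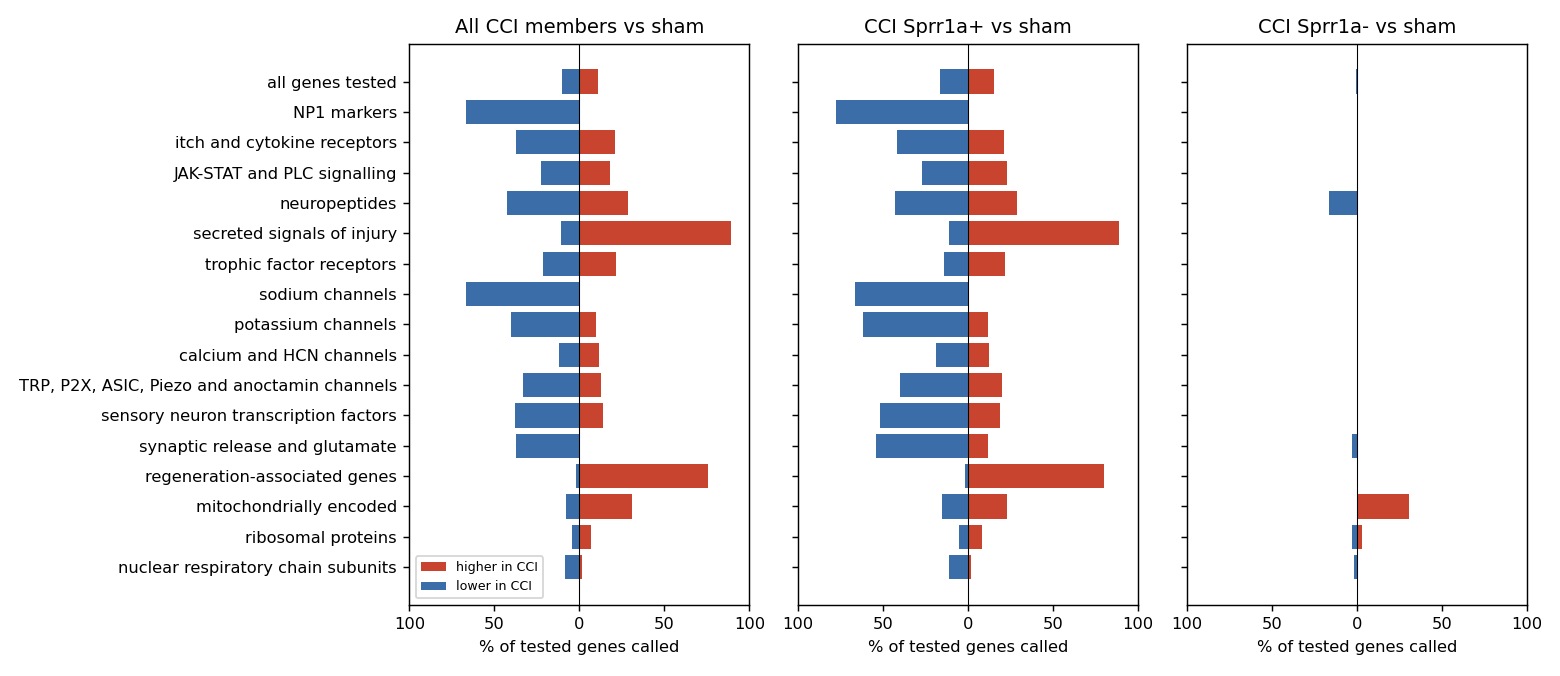
Share of the tested genes of each list called higher (red, to the right) and lower (blue, to the left) in CCI members against sham, in %, for all, *Sprr1a*+ and *Sprr1a*- members, with all genes tested as one of the 17 lists. In *Sprr1a*+ members the bars of the regeneration and secreted lists extend to the right (40 of 50 and 8 of 9) and those of NP1 markers and sodium channels to the left (7 of 9 and 8 of 12), and in *Sprr1a*- members most lists are at 0.

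By the rule for named genes (the largest changes among abundant called genes), the falls in *Sprr1a*+ members were led by *Sst* and the noncoding RNA *9230105E05Rik* (138 and 86.4 CPM in sham, 1.33 and 2.24 CPM after, log2 change -5.90). *A3galt2*, a glycosyltransferase, had 296 UMIs in sham members and 3 in *Sprr1a*+ CCI members (level ratio 0.0154, exact interval 0.00317-0.0456). *Chrna6*, a nicotinic receptor subunit, was at 1.33 and 1.96 CPM in *Sprr1a*+ CCI members (-4.58). *Patj*, *Tmem72*, *Serpina3g* and *Tmem176b* fell by 4.30, 4.14, 3.83 and 3.80, with the *Patj* call lost with any *Sprr1a* UMI (-2.07, adjusted p = 0.11). Among the rises *Ifi202b*, an interferon-inducible gene, had no UMI in sham members and 273 in *Sprr1a*+ CCI members, at least 43.6-fold higher when 3 UMIs are set for sham. It belongs to a family of near-identical copies, so its reads may be split among them. *Tgfbi*, a matrix protein, rose by 5.05, *Epb41l4a* by 4.82, *Cryba2* by 4.38, *Bcat1* by 4.06 and *Pthlh*, the parathyroid hormone-like hormone, by 3.91.

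Few genes were called in members below the *Sprr1a* limit. These are not cells without *Sprr1a*: 14 of 40 and 16 of 41 of the *Sprr1a*- CCI members had no *Sprr1a* UMI, against 117 of 120 and 125 of 136 in sham. In *Sprr1a*- CCI members edgeR called 40 of 11122 genes (1473 had an unadjusted p under 0.05), and DESeq2 called 53. Without the filter on low counts 264 genes were called, and with sex as a block 299. None of the 9 NP1 markers, 23 itch and cytokine receptors, 12 sodium channels, 40 potassium channels, 47 regeneration genes, 27 transcription factors or 7 secreted factors was called. Only 0.36% of all genes tested were called, so this absence does not set these lists apart or show that they were unchanged. The median log2 change of the regeneration genes was 0.301, against 0.00734 over all genes tested. The NP1 markers *Il31ra* (0.43, adjusted p = 0.20), *Sst* and *Nts* (-0.09) did not pass, with *Il31ra* called without Male-Sham. *Sox11* (0.67) passed in 3 of 16 alternatives, among them without Female-Sham (1.18) and with sex as a block (0.71), and *Cartpt* (-1.36) in 6 of 16, among them without Male-Sham (-1.57) and without Female-Sham (-1.13). The count rested on few libraries. Without Male-CCI or without Female-CCI 7 genes were called, and without Male-Sham and without Female-Sham 143 and 70.

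*Meg3*, a long noncoding RNA, rose in these members. It was at 2348 and 2125 CPM in sham and 3845 and 4205 CPM in *Sprr1a*- CCI members (log2 change 0.82, SE 0.10, edgeR adjusted p = 0.0065) and was called in all 16 alternatives. It was as high in *Sprr1a*+ CCI members (4218 and 4754 CPM). *Malat1*, another nuclear RNA, was at 5855 and 6039.8 CPM and then 8890.5 and 9976 CPM (0.64), a call lost without Female-CCI (adjusted p = 0.077) and with any *Sprr1a* UMI. *Kcnq1ot1* was at 53.4 and 55.3 CPM and then 106 and 109.5 CPM (0.96), lost without Male-CCI (adjusted p = 0.053) and without Female-CCI (0.070). Of 13 mitochondrially encoded genes 4 rose (30.8%, beside 0.108% of all genes tested). Among them was *mt-Nd2* (1155 and 1167, then 1936 and 2038 CPM, 0.75), whose call was lost with the mitochondrial limit at 5%. The median mitochondrial share of members was 3.98% and 4.34% in sham and 5.22% and 5.27% in *Sprr1a*- CCI members, and the part of this difference in these calls was not tested beyond that limit.

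Of the peptides, *Calca* and *Tac1* were lower in *Sprr1a*- CCI members too. The peptidergic sum was also lower, but it contains both genes and is not a separate observation. *Calca* and *Tac1* were highest in sham members of low *Nppb*. The part of those cells in this difference was tested only by the alternatives named here. *Calca* was at 649 and 629.8 CPM against 1089 and 1562 CPM in sham (log2 change -1.08, edgeR adjusted p = 0.042), a call lost in 8 of 16 alternatives, without Male-CCI (adjusted p = 0.33), without Female-CCI (0.27), without the members of shared barcodes (0.15), at *Nppb* of at least 5 CP10K and with at least 3 further markers among them. *Tac1* was at 342 and 436 CPM against 628 and 594 CPM (-0.68, adjusted p = 0.042), lost without Male-CCI (0.11), without the highest doublet scores and with any *Sprr1a* UMI. *Mt3*, a neuronal metallothionein, was at 208 and 305 CPM in sham and 84.4 and 73.0 CPM after (-1.73, adjusted p = 0.014), and *Usmg5*, a subunit of the ATP synthase, at 605 and 696 CPM and then 391 and 359 CPM (-0.82). Both calls were lost on leaving out either CCI library (adjusted p = 0.23 for *Mt3* in both, 0.053 and 0.070 for *Usmg5*). *Grik1*, a kainate receptor subunit and an *Mrgprd*-neuron marker, was at 12.7 CPM in both sham libraries and at 0.938 and 3.22 CPM after (2 and 6 UMIs, -2.67), a call lost in 5 of 15 alternatives, on leaving out either CCI library among them (adjusted p = 0.16 and 0.070).

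The change of *Sprr1a*- members after CCI was set against that of *Sprr1a*- cells of the *Mrgprd* and the *Mrgpra3* class in the same libraries, to ask where the *Nppb* members differed. In each class the *Sprr1a*- CCI cells were compared with all sham cells. These held 10 and 20 *Sprr1a*+ *Nppb* members, but 0 and 0 *Sprr1a*+ *Mrgprd* and 0 and 1 *Sprr1a*+ *Mrgpra3* cells. Without *Sprr1a*+ sham cells the gene counts were 27 against *Mrgprd* and 51 against *Mrgpra3* cells. In an edgeR model with the library as a block, the change differed from that of *Mrgprd* cells for 22 of 12188 genes (0.181%, with 9 or 0.0738% higher and 13 or 0.107% lower in the *Nppb* members). Against *Mrgpra3* cells it differed for 24 of 11779 genes (0.204%, with 6 or 0.0509% higher and 18 or 0.153% lower). The peptide genes *Gal*, *Calca* and *Nts* were among the former and *Gal*, *Cartpt*, *Tac1* and the neurotrophin *Bdnf* among the latter. *Calca* was at 1513 and 1824 CPM in sham *Mrgprd* cells and at 2404 and 2148 CPM in their *Sprr1a*- CCI cells, whereas in the *Nppb* members it went from 1089 and 1562 to 649 and 629.8 CPM (difference of log2 changes -1.49, SE 0.11, edgeR adjusted p = 2.8e-07). *Bdnf* was at 43.4 and 52.6 CPM in sham *Mrgpra3* cells and at 84.2 and 110.1 CPM in their *Sprr1a*- CCI cells, and in the *Nppb* members at 115 and 127 and then 133 and 149 CPM (difference -0.81, SE 0.13, adjusted p = 0.0056). The *Calca* difference was lost in 4 of 13 alternatives, none of which left out a library, and the *Bdnf* difference with DESeq2 and with the mitochondrial limit at 5%. In *Sprr1a*- sham members *Calca* was at 38.4 and 62.1 CP10K at *Nppb* of 1 to 2 CP10K. At 10 CP10K or more it was at 3.11 and 2.77. The part of those low-*Nppb* cells in the *Calca* difference was not tested beyond the alternatives.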

How the data were processed

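The deposited values are raw UMI counts of each gene in each cell, which the authors made with Cell Ranger against mm10, with no normalization or further filter. The file header gives version 3.0.2 and the labels 2.1.1, and the labels also name Seurat. Counts of members were summed per library and by *Sprr1a* stratum and tested with edgeR 4.0.16 (filterByExpr, TMM, robust quasi-likelihood test, Benjamini-Hochberg adjustment), with DESeq2 1.42.0 as an alternative. *Sprr1a* stayed in the fits and the adjustment but was left out of the calls and the counts of genes tested. *Nppb*, *Mrgprd* and *Mrgpra3*, which chose the cells, stayed in the fits and the call counts but are given no p. Members and gene lists were chosen with earlier results of these data known. The genes named are those of the lists fixed by role and the 10 largest changes in each direction among called genes with a mean of at least 20 CPM in the higher group and the same direction in both sexes, in each comparison with sham. Where a group had no UMI the fold is a bound against 3 UMIs, and for 1 to 3 UMIs the ratio is given with an exact interval. Doublets were scored with Scrublet (scanpy 1.11.5) and kept, since its automatic threshold marked 2, 121, 0 and 0 cells, and leaving out the highest 10% of scores was an alternative. The deposited libraries held 4019 to 8035 cells and 195684124 to 237069156 UMIs. On simulated counts at these depths 96.3% of 4-fold and 63.4% of 2-fold changes were recovered for *Sprr1a*+ members, and 90.0% and 47.8% for *Sprr1a*- members. The simulation gave every gene the same dispersion, left the lowest genes unchanged and held no difference of sex or cell composition. Its rates are therefore not the power of these data. Gene positions come from GENCODE (GRCm38) and promoters from RefSeq (GRCm38.p6).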

Additional observations from a re-analysis of the deposited data

Results flagged for a closer look

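The change of *Sprr1a*- *Nppb* members after CCI differed from that of *Sprr1a*- *Mrgprd* cells for 22 genes, and from that of *Sprr1a*- *Mrgpra3* cells for 24 genes, each by the interaction term of an edgeR model with Benjamini-Hochberg adjustment. The values below are differences of log2 changes, *Nppb* members minus the other class. Against *Mrgprd* cells *Calca* was at -1.49, *Nts* at -2.63, *Gal* at -2.26, *Grik1* at -2.61 and *Dcn*, decorin, at 1.85. For *Nts* the *Mrgprd* cells were near 0, at 1.44 and 3.29 CPM in sham and 12.6 and 14.2 CPM after CCI, beside 2099.6 and 2977 and then 2614 and 2257 CPM in the *Nppb* members, and for *Gal* they were at 7.64 and 12.6 and then 31.9 and 45.3 CPM. The sham values of the *Nppb* members take in *Sprr1a*+ sham members, whose *Nts* was above that of *Sprr1a*- sham members. *Gal* was also found in 8.77% to 64.0% of glial gate cells, and the part of such free RNA in these differences was not tested. In sham *Nppb* members *Gal*, *Calca* and *Tac1* lay largely in those of low *Nppb*. *Dcn* was at 334 and 395 CPM in sham *Nppb* members and 258 and 388 CPM in their *Sprr1a*- CCI members, and at 9.88 and 10.5 and then 2.42 and 2.11 CPM in *Mrgprd* cells. Against *Mrgpra3* cells *Gal* was at -1.55, *Cartpt* at -2.61, *Grik1* at -2.93, *Bdnf* at -0.81, *Flrt3* at -1.67 and *Tac1* at -0.57. *Grik1* rests on 2 and 6 UMIs in the *Sprr1a*- CCI *Nppb* members. Of the 11 differences each was lost under at least 1 alternative. Without Male-CCI, *Grik1* (adjusted p = 0.0505) and *Flrt3* (0.15) were lost against *Mrgpra3* cells, and *Tac1* missed the fold limit without Male-Sham (-0.49) and without Female-CCI (-0.45).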

How the results depend on the processing

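The call counts of *Sprr1a*+ members stayed within 1.5 times of 3701 under all 15 alternatives run (2493 with DESeq2 to 4118 without a filter on low counts). Over all members DESeq2 called 1578 genes and *Nppb* of at least 5 CP10K left 81. The count for *Sprr1a*- members (40) was 10 with any *Sprr1a* UMI, 71 with at least 3 further markers, 64 at a mitochondrial limit of 5%, 264 without the filter, 87 at *Nppb* of at least 5 CP10K, 129 without the sham *Sprr1a*+ members, 62 without shared barcodes, 19 without the highest doublet scores, and 7 to 143 on leaving out 1 library. For the difference from *Mrgprd* cells (22) it was 6 with any *Sprr1a* UMI, 102 without the filter, 3 without the highest doublet scores and 27 to 60 on leaving out 1 library (60 without Male-Sham, 43 without Male-CCI). For the difference from *Mrgpra3* cells (24) it was 10 with DESeq2, 66 without the filter, 51 without sham *Sprr1a*+ cells, 13 without the highest doublet scores and 21 to 71 on leaving out 1 library (71 without Male-Sham, 37 without Female-Sham). Male and female gave the only 2 numbers in each surgery, and with sex as replicate block the counts were 2693, 3444 and 299 for all, *Sprr1a*+ and *Sprr1a*- members. Deviations of the same sex correlated at 0.154, 0.0506 and 0.225, with too few pairs to show a pairing. At *Nppb* of at least 5 CP10K members were 2.38%, 1.41%, 0.897% and 0.555% of passing cells. *Sprr1a*+ cells were then 4.30% and 6.59% of sham members against 3.33% and 0 of CCI members. The excess in CCI was not seen there, and the cells were too few to read a direction. With at least 3 further markers the share of members in Female-Sham was 1.93%. *Bcat1* turned to -0.13 over all members at *Nppb* of at least 5 CP10K, and the difference of *Cartpt* from *Mrgpra3* cells to 0.46 at the 5% limit. The cause of these moves was not tested. *Sprr1a*+ members at *Nppb* of at least 5 CP10K and the *Mrgpra3* difference with any *Sprr1a* UMI had too few cells in a library and were not run. The requirement for 3 markers and the removal of shared barcodes were chosen after seeing the data. RLE size factors changed the call of none of 204 gene results. Depth limits low genes, since 3 UMIs are 1.41 and 1.61 CPM in *Sprr1a*- CCI members.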
